A study of Rattus with 4 samples.

Results

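The laminin chain genes Lamc1, Lamb1, Lamb2 and Lama5, the basement membrane proteoglycan genes Hspg2 and Agrn, the matrix glycoprotein genes Fn1, Sparc and Thbs1, and the collagen chaperone gene Serpinh1 were examined for RNA bound by RBM25. Members were found by gene name in the deposited peak lists, and every peak assigned to one of these 10 genes was kept, on either strand. They held 29 of 2696 peaks in replicate 1 and 110 of 8108 in replicate 2, and 9 of the 10 genes had at least 1 peak. Agrn had none in either list. RNA was taken from H9C2 cells, a myoblast line from embryonic rat heart, cross-linked with ultraviolet light and digested with micrococcal nuclease. The series has 2 RBM25 immunoprecipitates (IP) and 2 inputs; 1 peak list per IP was analysed and the inputs were not used here. The series' design text describes H9C2 cells with raised RBM25 for its expression arm, and whether the IP came from such cells is not given in the sources used here.

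RBM25 is an RNA-binding protein that associates with the U1 small nuclear ribonucleoprotein and influences the choice of splice sites. Laminins are heterotrimers of an alpha, a beta and a gamma chain that polymerise into the sheet of the basement membrane. Perlecan, the product of Hspg2, and agrin tie that sheet to other matrix parts and to cell surface receptors, and fibronectin forms the fibrils on which many other matrix proteins assemble. Several of these genes are long and divided into many small exons, so their pre-mRNA holds many splice sites. Muscle cells and fibroblasts make these proteins and anchor to them through integrins and dystroglycan.

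A peak is a stretch called by the authors, most often a single 50-nt bin with both ends counted. Tags were read, from their values, as the authors' count of signal in the bin (the mean over bins in longer peaks). Tags were not scaled for depth, so levels are given side by side for the replicates and no change between them was tested. No peak was called below 19 tags in replicate 1 or below 20 in replicate 2. The depth of the libraries is unknown, and a longer list may follow depth. Intervals are 95% Wilson intervals and cover counting error only. Peaks of a gene are not independent, the labels do not state separate cultures for the replicates, and no differences between the matrix genes and other genes were tested. Among marker genes, 4 of 9 genes listed for muscle and myoblasts (Cald1, Myh9, Tnnt2 and Tpm1) had a peak in each list. Des, Myod1, Myog, Myf5 and Actc1 had none, 5 of 7 fibroblast markers had a peak in at least 1 list, and 0 of 4 endothelial and 0 of 3 immune markers did. A missing peak says nothing about expression. Several of these markers, Cald1, Myh9 and Tpm1 among them, are made in many cell types. The lists therefore do not check the identity of the cells.

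Recurrence between the lists was the first question. Replicate 1 had peaks in 7 of the 10 genes and replicate 2 in 9, the same 7 among them. A peak that overlapped a peak of the other list on the same strand, called shared, was found in Lamc1, Hspg2, Thbs1 and Serpinh1. These are 4 of the 9 members with a peak (44.4%), against 34.1% of all 1914 genes with a peak in either list. Of those 1914 genes, 922 had a replicate 1 peak and 1819 a replicate 2 peak. Only a gene with a replicate 1 peak can hold a shared one, and a larger part of the members had such a peak. Among genes with a replicate 1 peak, 4 of 7 members held a shared peak, a lower share than the 652 of 922 genes. The 4 members all held a shared sense peak, which is again 44.4% of the 9 members with a peak, against 23.9% of the 1914 genes. Among genes with a replicate 1 peak these were 4 of 7, against 457 of 922.

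At the level of peaks, 8 of the 29 replicate 1 peaks were shared (27.6%, 14.7 to 45.7), against 61.0% of all replicate 1 peaks. The same 8 overlaps were 7.27% of the 110 replicate 2 peaks (3.73 to 13.7), against 20.3% of that list. In collagen genes, 25 of 43 replicate 1 peaks (58.1%) and 25 of 100 replicate 2 peaks were shared. Most of the replicate 1 peaks in the matrix genes lay where replicate 2 had no called peak on that strand. By level, 9 of the 29 peaks had 19 to 21 tags, 12 had 22 to 25, and 8 had 26 or more, where the 2561 peaks of other genes numbered 804, 742 and 1015. In these classes 0, 5 and 3 peaks of the matrix genes were shared, against 52.9%, 63.2% and 69.7% of peaks in other genes. The upper limit of the interval for 0 of 9 was 29.9%.

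**Figure D1:**
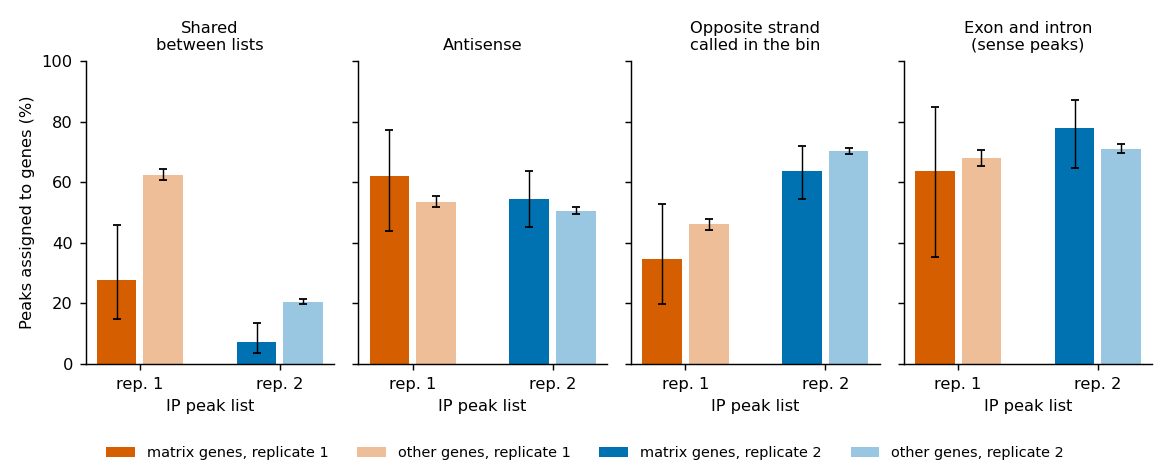
Percentage of peaks assigned to genes (y axis) in 4 classes, for the matrix genes and all other genes in each IP peak list, with 95% Wilson intervals as error bars. The shared class stands at 27.6% and 7.27% in the matrix genes and at 62.5% and 20.6% in other genes. The antisense class stands at 62.1% and 54.5% in the matrix genes and at 53.6% and 50.6% in other genes. Peaks of a gene are not independent, and no difference was tested.

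Some of the 21 replicate 1 peaks without a partner lay near one. In 8 of them (38.1%, 20.8 to 59.1) the nearest replicate 2 peak on the strand started within 300 nt, a distance chosen after the values were seen. In other genes 238 of 960 unshared peaks did (24.8%). The distance ran between 100 and 14150 nt, with a median of 1200 nt.

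**Figure D2:**
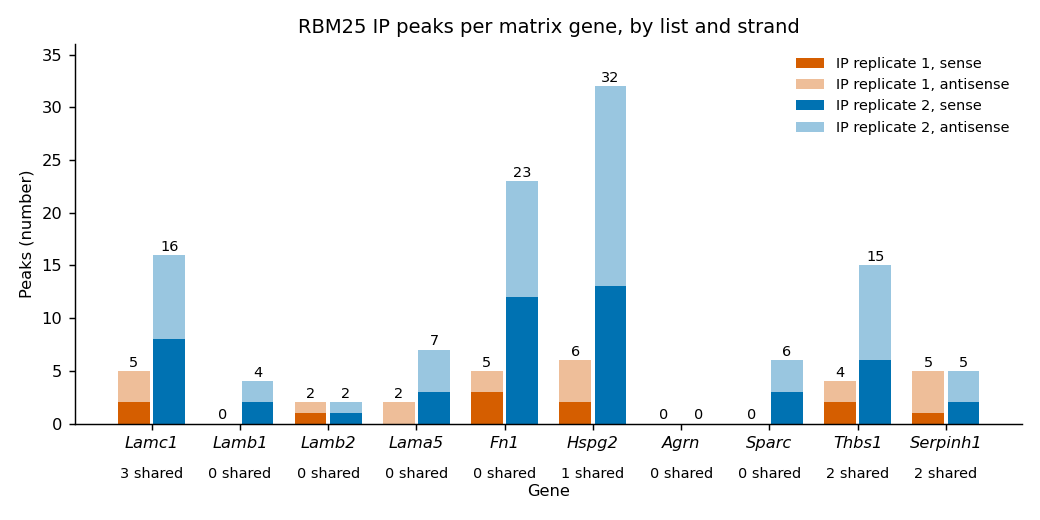
Number of peaks (y axis) of each of the 10 matrix genes (x axis) in IP replicates 1 and 2, split into sense (dark) and antisense (light), with the number of replicate 1 peaks shared on the same strand below each name. Hspg2 and Fn1 reach 32 and 23 peaks in replicate 2 with 1 and 0 shared, and Agrn has none.

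Lamc1 encodes the gamma chain found in most laminins, and it carried the most shared peaks of the set. On chromosome 13 (mRatBN7.2, minus strand) it held 5 replicate 1 peaks and 16 replicate 2 peaks. At 65385300 to 65385350, a bin wholly in coding sequence, all 4 combinations of list and strand were called. Replicate 1 gave it 23 sense and 24 antisense tags, and replicate 2 gave 27 and 31. At 65388250 to 65388300 the sense level was 34 tags in replicate 1 and 51 in replicate 2, with a fraction of 0.98 in coding sequence and 0.02 in intron. Its antisense counterpart had 41 tags in replicate 1 and was not called in replicate 2, where the sense level was higher.

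The highest Lamc1 peak was in replicate 2 alone. It lay at 65384100 to 65384150, covering coding sequence over a fraction of 0.8 and intron over 0.2, and had 110 tags on the sense strand. No antisense peak was called in that bin. The other replicate 2 peaks of Lamc1 had 20 to 51 tags. Most of the Lamc1 peaks sat close together: 19 of 21 lay between 92.2 and 117.2 kb downstream of the most 5′ peak. That peak, antisense with 20 tags in replicate 2, stood far from the rest, at 65501300 to 65501350.

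The beta chain genes had few peaks. Lamb1, the partner of Lamc1 in many laminins, had 4 peaks on chromosome 6, each in replicate 2. Its bin at 47897500 to 47897550 had 26 sense and 25 antisense tags, and its 2 remaining peaks had 20 tags (sense) and 21 (antisense). Lamb2, the beta chain of neuromuscular and kidney basement membranes, had 2 peaks in each list on chromosome 8 within 600 nt, and they did not overlap between the lists. In replicate 1 the sense peak at 109189750 to 109189800 had 21 tags and the antisense peak at 109190300 to 109190350 had 19. In replicate 2 both strands were called in 1 bin between them, at 109190050 to 109190100, with 31 sense and 30 antisense tags.

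Lama5 encodes a widely expressed alpha chain. It had 2 peaks in replicate 1, both antisense, with 21 and 22 tags, and 7 in replicate 2 with 20 to 32 tags, on chromosome 3. None was shared. Each of the 3 replicate 2 sense peaks held coding and intron sequence. The highest pair was at 167274700 to 167274750, with 29 sense and 32 antisense tags.

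Hspg2, the perlecan gene, had the most peaks of the set, 6 in replicate 1 and 32 in replicate 2, on chromosome 5. In replicate 2 it ranked 8 among 1819 genes by number of peaks, level with 1 other gene, where Macf1 led with 49; in replicate 1 it ranked 72 among 922, level with other genes of 6 peaks. The many peaks were low: tags ran between 19 and 25 in replicate 1 and between 20 and 35 in replicate 2. A single Hspg2 peak was shared, on the sense strand at 149759400 to 149759450, with 22 tags in replicate 1 and 34 in replicate 2. That bin held coding sequence over a fraction of 0.54 and intron over 0.46, and in replicate 2 its antisense strand also had 34 tags.

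Around the shared bin, 7 of the 27 called Hspg2 bins lay within 2200 nt (149758400 to 149760600), the fullest window of 2500 nt in the gene. At 149758400 to 149758450 replicate 1 had 25 sense and 22 antisense tags, and the nearest replicate 2 peaks started 250 nt away on each strand. Among the most 3′ of its peaks, the pair at 149773200 to 149773250 had 34 sense and 35 antisense tags in replicate 2. Agrn, the other proteoglycan gene, had no peak, so the proteoglycan results rest on Hspg2 alone.

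Fn1, the fibronectin gene, had many peaks and none shared. It had 5 peaks in replicate 1, with 19 to 23 tags, and 23 in replicate 2, with 20 to 85 tags and a median of 32, on chromosome 9. Of the 48 genes with 5 replicate 1 peaks, 3 had no shared peak: Fn1, Tle5 and the ribosomal RNA gene Rn28s. Of the 87 genes with at least 15 peaks in replicate 2, 5 had none, namely Eprs, Fn1, Nisch, Pdia6 and Tns1, and the median over the 87 genes was 5 shared peaks. The thresholds of 5 and 15 peaks were set after the counts of Fn1 were seen.

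The strongest Fn1 bin, 73262150 to 73262200, had 85 tags on each strand in replicate 2 and lay among the most 5′ of its peaks. The bin at 73218750 to 73218800 had 64 sense and 74 antisense tags, and that at 73212900 to 73212950 had 41 and 46. None of these 3 bins was called in replicate 1. The replicate 1 pair at 73223450 to 73223500, with 23 sense and 22 antisense tags, was not called in replicate 2. The lists met in 1 Fn1 bin, 73239900 to 73239950, but on opposite strands, with 19 sense tags in replicate 1 and 20 antisense tags in replicate 2.

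**Figure D3:**
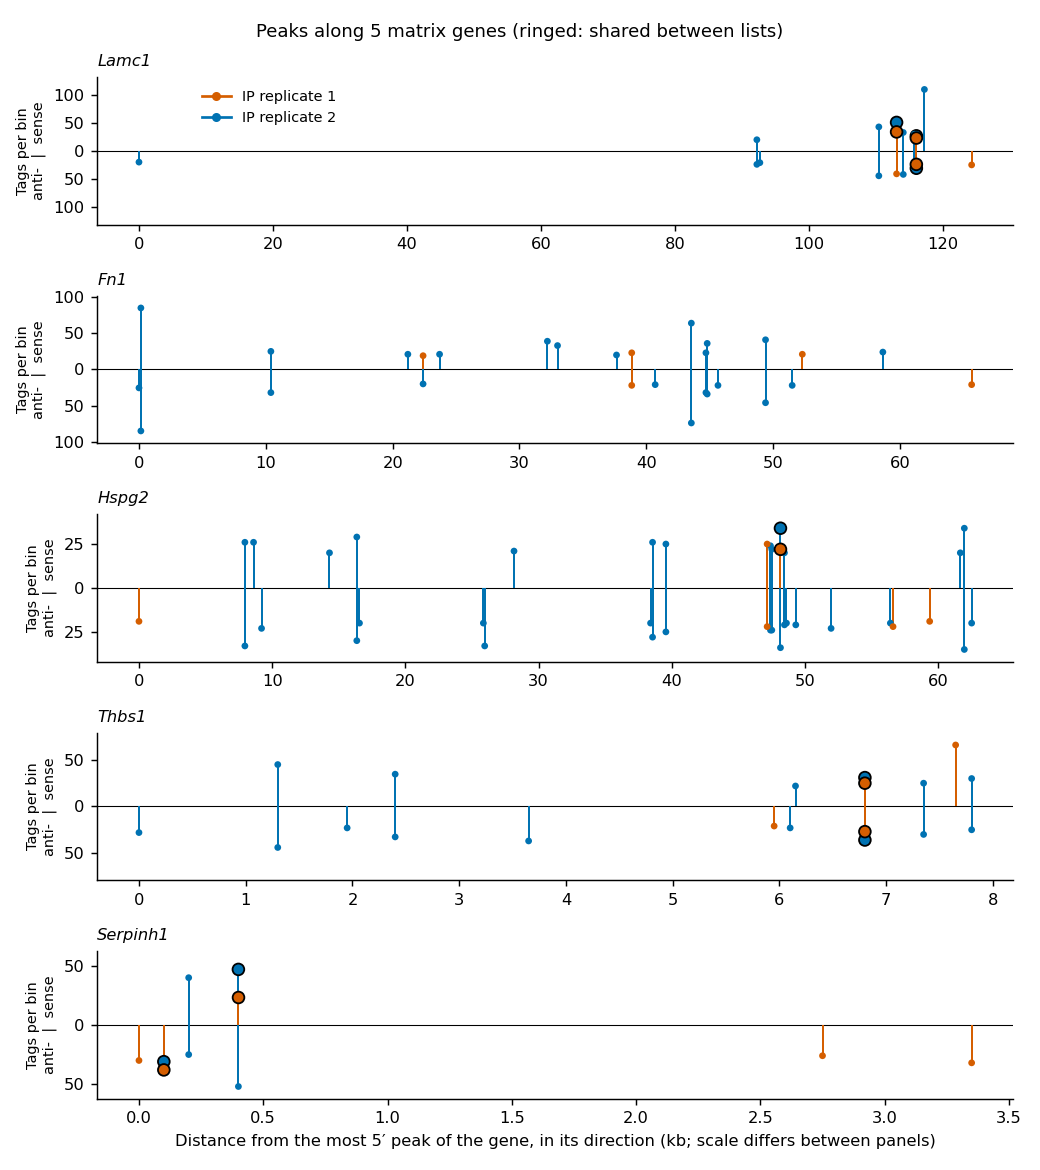
Peaks of Lamc1, Fn1, Hspg2, Thbs1 and Serpinh1 by distance in kb from the most 5′ peak of the gene (x axis) and tags per 50-nt bin (y axis, sense upward and antisense downward), with shared peaks ringed. Paired stems on both sides of the line are common, and rings appear at 2 positions in Lamc1 and Serpinh1, 1 in Hspg2 and Thbs1, and none in Fn1.

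Thbs1 encodes thrombospondin, a matricellular glycoprotein that regulates cell adhesion and growth factor activity. On chromosome 3 it held 4 replicate 1 peaks and 15 replicate 2 peaks. The bin at 105068900 to 105068950 was called in both lists and on both strands, with 25 sense and 27 antisense tags in replicate 1 and 31 and 36 in replicate 2. A fraction of 0.64 of it was coding sequence and 0.36 intron. Of the 16 called Thbs1 bins, 8 lay in 1900 nt at the 3′ end of its called peaks, between 105068050 and 105069950.

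The set's only peaks with 3′ UTR sequence were in Thbs1. In replicate 1 the bin at 105069750 to 105069800 had 66 sense tags, the highest level of any matrix gene peak in that list, and no antisense peak. Replicate 2 had no peak there. Its nearest sense peak, at 105069900 to 105069950 and also wholly in the 3′ UTR, had 30 tags, with 25 antisense tags. A further replicate 2 peak at 105069450 to 105069500 held 3′ UTR over a fraction of 0.6 and had 25 sense and 30 antisense tags.

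Sparc encodes a collagen-binding matricellular protein, and it had peaks in replicate 2 alone, 6 within 2.85 kb on chromosome 10. The sense peak at 39521150 to 39521200 had 108 tags, with a fraction of 0.94 in coding sequence and 0.06 in intron, and no antisense peak. The antisense peak at 39523200 to 39523250 had 55 tags and no sense peak. The bins at 39523300 to 39523350 and 39520500 to 39520550 were called on both strands, with 22 sense and 29 antisense tags in the first and 25 and 20 in the second. All 3 sense peaks of Sparc crossed between exon and intron.

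Serpinh1 encodes a collagen-specific chaperone of the endoplasmic reticulum and had 5 peaks in each list on chromosome 1. Its sense peak at 153646650 to 153646700 was shared and wholly coding, with 24 tags in replicate 1 and 47 in replicate 2. The antisense strand of that bin had 52 tags in replicate 2 and was not called in replicate 1. The antisense peak at 153646950 to 153647000 was also shared, with 38 and 31 tags, and was not matched by a sense peak in either list. Of the 5 replicate 1 peaks 4 were antisense, and 2 of these lay 3′ of all other peaks of the gene. They were at 153643700 to 153643750 with 32 tags and 153644250 to 153644350 with 26, where replicate 2 had no peak. No Serpinh1 sense peak held intron sequence.

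**Figure D4:**
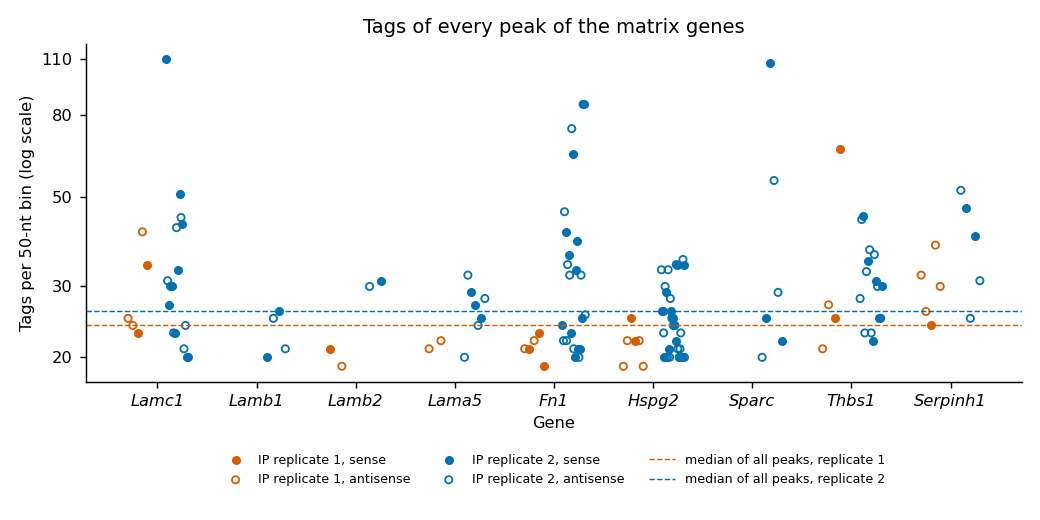
Tags per 50-nt bin (y axis, log scale) of every peak of the 9 matrix genes with peaks (x axis), filled for sense and open for antisense, with dashed lines at the median of all peaks of each list (24 and 26 tags). Lamc1 and Sparc each have a sense peak above 100 tags in replicate 2, and Hspg2 stays at or below 35.

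Across the set, tags were close to those of the whole lists. The median was 23 tags in replicate 1, against 24 for all peaks, and 26 in replicate 2, as for all peaks. By role, the replicate 1 median was 23 tags in laminin chains, 22 in fibronectin and matricellular genes, 22 in Hspg2 and 30 in Serpinh1. These medians rest on 9, 9, 6 and 5 peaks. In replicate 2 they were 27, 30, 24 and 40 tags in the same order, over 29, 44, 32 and 5 peaks. The matrix genes held 1.08% of replicate 1 peaks and 1.36% of replicate 2 peaks. Of the replicate 2 peaks, 5 had the lowest p-value that the list gives for their strand, as did 177 peaks of the whole list. They were the 110-tag Lamc1 peak, the 108-tag Sparc peak, both strands of the 85-tag Fn1 bin and the 74-tag Fn1 peak.

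Strand was the next question, because the libraries were stranded, per the labels' protocols, and the authors annotated each peak as sense or antisense to its gene. Antisense peaks were 18 of 29 in replicate 1 (62.1%, 44.0 to 77.3), against 53.7% of all peaks assigned to genes. In replicate 2 they were 60 of 110 (54.5%, 45.2 to 63.5), against 50.7%. The intervals hold the values of the whole lists. No peak assigned to another gene lay within the span of the peaks of any member; each peak is assigned to 1 gene, and overlapping transcripts were not analysed here.

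Opposite strands of the same bin were often both called. In replicate 1, 10 of 29 peaks (34.5%) had an opposite-strand peak in the bin, against 45.9% of all peaks in genes. In replicate 2, 70 of 110 did (63.6%), against 70.3%. Tags of the strands were similar in such bins, which in replicate 2 numbered 39 of the 82 called. There the antisense strand took a median of 50.9% of the tags, with a range of 38.5 to 58.2%. Antisense was higher in 22 of these bins, sense in 11, and they were equal in 6. Spearman's rho between sense and antisense tags was 0.840 over the 39 bins of this 1 library, which share genes and sequence. A longer peak gives its mean tags to each of its bins, so some of the 39 values are repeats. The bins came from 35 sense peaks, and the median, the counts and rho include the repeats. A bin enters only if both strands were called, so this likeness is partly set by the calls. In replicate 1 the antisense share was 46.8 to 54.7% in 5 bins.

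Bins called on 1 strand held the highest sense levels. Besides the 110 tags of Lamc1 and the 108 of Sparc in replicate 2, the 66 tags of Thbs1 in replicate 1 had no antisense peak. The lowest called level in those lists was 20 and 19 tags, so the antisense strand was below that level or not called. Over all genes, 9 of 47 replicate 2 peaks with at least 100 tags had no opposite-strand peak (19.1%), and 28 of 69 replicate 1 peaks with at least 60 tags had none (40.6%). Those sets hold both strands: 22 of the 47 and 35 of the 69 were sense, and the unmatched peaks were not split by strand. These tag limits were chosen after the matrix gene values were seen.

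**Figure D5:**
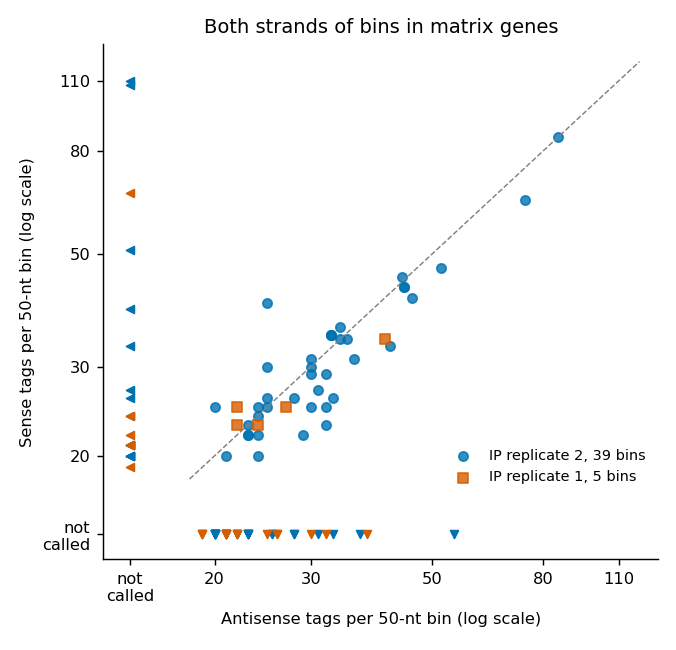
Sense (y axis) against antisense tags (x axis) per 50-nt bin of the matrix genes, both on log scales, for IP replicates 1 (squares, 5 bins) and 2 (circles, 39 bins), with equality as a dashed line and bins called on 1 strand as triangles at the margins. Bins with both strands follow the line up to the 85-tag Fn1 bin, and the highest sense levels lie at the margin without an antisense call.

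Location within the genes was read from the deposited annotation. Of the sense peaks, 7 of 11 in replicate 1 (63.6%, 35.4 to 84.8) held both exon and intron sequence, against 67.8% of all sense peaks. In replicate 2 these boundary peaks were 39 of 50 (78.0%, 64.8 to 87.2), against 71.2%. With at least 10% of the peak asked from exon and from intron, 54.1% of the set's sense peaks over both lists counted, in place of 75.4%. That stricter share was not computed over all sense peaks, so it cannot be set against 67.8% or 71.2%. Hspg2 had 2 boundary peaks among 2 sense peaks in replicate 1 and 11 among 13 in replicate 2. Fn1 had 2 of 3 and 9 of 12, Lamc1 1 of 2 and 6 of 8, and Thbs1 1 of 2 and 5 of 6. Serpinh1 had 0 of 1 and 0 of 2.

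Boundary peaks of the matrix genes leaned to exon sequence in replicate 2, and those of replicate 1 were few. The median exon share of a boundary peak was 22% in replicate 1, over 7 peaks, and 74.0% in replicate 2, over 39. In other genes it was 58.0% and 62.0%. Intron made up the larger part of 4 of the 7 boundary peaks in replicate 1, against 333 of 814 over all genes (40.9%). In replicate 2 it did so in 9 of the 39, against 1001 of 2767 (36.2%). The set had 1 sense peak wholly in an intron, in Fn1 at 73224650 to 73224700 with 20 tags in replicate 2. Whether a boundary was a 5′ or a 3′ splice site was not analysed here.

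Related matrix genes were read from lists of 92 further genes. Of these, 32 had a peak in either list and 12 had a shared peak, 9 of them on the sense strand. The 12 were 37.5% of the 32, against 34.1% of all genes with a peak. They were 12 of the 21 with a replicate 1 peak, against 652 of 922 genes. Among 24 matrix receptors, 9 had a peak and 3 a shared one. Itga7, the laminin-binding integrin subunit of muscle, had 8 peaks in replicate 1, all shared, and 18 in replicate 2. The shared Itga7 peak with the most replicate 1 tags, on the sense strand, stood at 43 tags there and at 37.7 in replicate 2, where the highest peak of the gene had 63. Lrp1, an endocytic receptor for many matrix proteins, had 9 and 40 peaks, with 5 of the 9 shared. Its shared peak with the most replicate 1 tags stood at 22 tags there and at 39 in replicate 2, and its highest peak in each list had 38 and 44. Itgb5 had 22 and 33 tags at its 1 shared peak. These shared peaks of Lrp1 and Itgb5 were antisense. Itgb1, the beta subunit of most laminin and fibronectin receptors, had 3 and 14 peaks with none shared, and Dag1, the dystroglycan gene, had no peak.

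Of 14 further basement membrane genes, 3 had a peak and 2 a shared one. For these and the following genes, the strongest shared peak is the shared peak with the most replicate 1 tags. The type IV collagen genes Col4a1 and Col4a2 had 21 tags each in replicate 1 at their strongest shared peaks, both sense, and 33 and 25 in replicate 2. Nid1, the laminin-binding linker nidogen, had 1 and 4 peaks with none shared. Of 26 further matricellular and elastic fibre genes, 9 had a peak. Emilin1, an elastic fibre glycoprotein gene, was the 1 with a shared peak, with 28 and 46 tags on the sense strand. Of 21 further genes for collagen folding, modification and export, 10 had a peak and 5 a shared one. At their strongest shared peaks the chaperone gene Canx had 29 and 36.5 tags, the crosslinking enzyme gene Loxl1 27 and 27, the export receptor gene Mia3 26 and 23, and the procollagen proteinase gene Bmp1 21 and 28.5. The Mia3 peak was antisense.

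By numbers of peaks, the genes most like Lamc1 were Phldb1, Eif4b and Hdlbp. Likeness was the Euclidean distance over 6 counts from the 2 lists (sense and antisense peaks in each, and shared sense and antisense peaks). It was 1.73 for Phldb1 and 2.0 for the others, and Hnrnpa2b1, also at 2.0, came after them by alphabet. Phldb1 had 5 and 16 peaks with 4 shared, where Lamc1 had 5 and 16 with 3 shared.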

How the data were processed

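The authors deposited 1 peak list per IP, with position, strand, tags, p-value, length, annotation and gene for each peak; per the submitters' processing notes, HISAT2 and the build mRatBN7.2 were used, while the peak caller with its settings is not given in the sources used here. Tags are a signal per 50-nt bin, per the file headers and values: whole in all 2560 and 7537 peaks of 51 nt, and a mean over bins in longer peaks. The deposited p-value served to rank peaks.

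Peaks sharing at least 1 bin on the same strand were called shared. Location came from the deposited annotation fractions, and a boundary peak held exon and intron. Related genes came from 5 lists of 102 entries, of which 10 are members. All members were named with their peaks, then, of other genes with a shared peak, up to 4 per list by the replicate 1 tags of their strongest shared peak, then the 3 genes nearest the member with the most shared peaks. A gene that this rule names is left out of the text, and other genes named (such as Itgb1, Dag1 and Nid1) were chosen after their values were seen. Members and lists were chosen with earlier results of these data known, so no enrichment test was made. Overlap counting was tested on simulated data. A RefSeq table (GRCr8) was used for names alone, and sequences were not analysed here. Computation used pandas 2.3.3 and numpy 2.4.6 under Python 3.11.15, intervals scipy 1.17.1, and drawing matplotlib 3.10.9.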

Additional observations from a re-analysis of the deposited data

How the results depend on the processing

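No paired analysis was possible because no result comes from a test and both peak lists analysed are of 1 group, the IPs. The number of genes with a shared peak was 4 of the 10 members, which include Agrn without a peak. It was 3 with the better part of each list by p-value, 4 with an overlap of at least 50% of each peak or with sense peaks alone, 5 with overlap on either strand, where Fn1 was added, and 7 with a peak anywhere in the gene in each list, which asks for no overlap. The shared replicate 1 peaks were 6 of 13 in the better part of each list and 10 of 29 on either strand. Shares over all genes or all peaks were not computed for these changed rules of sharing, so the counts have no background beside them. Leaving out a replicate gave 7 to 9 genes with a peak, 54.5 to 62.1% antisense peaks and 63.6 to 78.0% boundary peaks. The boundary share over both lists was 75.4%, and 54.1% with at least 10% of exon and of intron asked. The 54.1% has no counterpart computed over all sense peaks. Without Hspg2 the boundary share was 71.7%, and the antisense share was 54.5% in place of 56.1%. Median tags became 27 in replicate 1 and 33 in replicate 2 in the better part of each list, by construction, since p-values follow tags. The 11 sense peaks of replicate 1 and the unknown depth limit every statement on that list.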
